A study of Homo sapiens with 24 samples.

Results

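The cholesterol and fatty acid synthesis genes described here are a list of 37 genes that encode the enzymes of the mevalonate and cholesterol pathways, the enzymes of fatty acid synthesis, desaturation and elongation, and the sterol sensing regulators of both. A gene entered by its name, and its value is that of 1 array probe, the detected probe with the highest mean signal. Of the 37 genes 35 have a probe in the annotated table (FDFT1 and ACSL3 were not analysed here), and 34 were measured, meaning over background (detection p under 0.05) in at least 3 of the 24 arrays, against 13283 measured genes of 20045 with a probe in the whole series. STARD4, a cholesterol carrier, was over background in 1 array and is not described further. FADS2, a desaturase, was over background in 3 arrays, with group means between 6.97 and 7.11 log2 units, and entered only the tests that span both experiments, so that 33 members were tested within each experiment.

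MM1S is a human multiple myeloma cell line that is sensitive to glucocorticoids (GC), and MM1R is its GC resistant subclone, obtained by long exposure to dexamethasone (Dex), a synthetic glucocorticoid. The 24 arrays (Illumina HumanHT-12 beadchips) form 8 groups of 3: MM1S and MM1R cells given 1 µM Dex, MM1S and MM1R cells left untreated, MM1S and MM1R cells electroporated with 150 nM of a synthetic mir-150-5p mimetic, and MM1S and MM1R cells electroporated with a mock control. Mimetic and mock cells were taken 72 h after electroporation and Dex cells after 72 h of Dex, and all cultures received fetal bovine serum, which carries cholesterol and fatty acids. Each line is 1 clone or subclone, the 3 arrays of a group are described as separate experiments, and p-values measure the spread between these arrays.

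Cholesterol is made from acetyl-CoA through mevalonate, isoprenoids, squalene and a chain of sterols. Fatty acids are made from acetyl-CoA by carboxylation and chain building, then elongated and desaturated. Both routes are switched on by the SREBP transcription factors, the products of SREBF1 and SREBF2. SREBP precursors sit in the endoplasmic reticulum bound to SCAP, which carries them to the Golgi for cleavage when sterols are low, and the INSIG proteins hold the SCAP complex back when sterols are high. INSIG1 is itself an SREBP target, and SREBP-1c, a product of SREBF1, is known more for the fatty acid genes while SREBP-2, the product of SREBF2, is known more for the sterol genes. In plasma cells, which secrete large amounts of antibody, these lipids supply the membranes of the secretory pathway.

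The promoters of 6 members are shown because they cover the regulators (INSIG1 and SREBF2), the mevalonate steps (HMGCS1 and FDPS) and the fatty acid arm (SCD and MID1IP1), and because SREBF2 did not pass the test in MM1S cells under either treatment while the other 5 did. The windows are those of RefSeq on GRCh38.p14, 250 bases before to 50 bases after the annotated start, read 5′ to 3′ on the gene's strand, and for HMGCS1 the first of its 2 listed windows was taken. Capitals mark the CCAAT box (CCAAT, bound by NF-Y, a known partner of SREBP), the sterol response element (TCACNCCAC) and the E-box (CACGTG), each searched on both strands, so that ATTGG is a CCAAT box on the other strand. None of the capitalised stretches overlap.
INSIG1 promoter, chr7:155297628-155297927, plus strand: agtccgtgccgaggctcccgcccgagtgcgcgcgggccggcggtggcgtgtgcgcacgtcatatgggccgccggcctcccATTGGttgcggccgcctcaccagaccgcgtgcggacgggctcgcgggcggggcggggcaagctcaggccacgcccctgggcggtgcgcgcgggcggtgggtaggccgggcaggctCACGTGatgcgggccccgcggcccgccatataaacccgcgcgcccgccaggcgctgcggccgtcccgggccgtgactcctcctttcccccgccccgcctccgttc
SCD promoter, chr10:100346983-100347282, plus strand: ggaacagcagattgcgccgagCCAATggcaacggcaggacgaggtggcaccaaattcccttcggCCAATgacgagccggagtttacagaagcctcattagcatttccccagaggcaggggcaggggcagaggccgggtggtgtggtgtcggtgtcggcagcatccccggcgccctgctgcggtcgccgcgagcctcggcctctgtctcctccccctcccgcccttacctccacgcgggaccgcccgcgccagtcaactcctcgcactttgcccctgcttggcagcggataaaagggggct
FDPS promoter, chr1:155308616-155308915, plus strand: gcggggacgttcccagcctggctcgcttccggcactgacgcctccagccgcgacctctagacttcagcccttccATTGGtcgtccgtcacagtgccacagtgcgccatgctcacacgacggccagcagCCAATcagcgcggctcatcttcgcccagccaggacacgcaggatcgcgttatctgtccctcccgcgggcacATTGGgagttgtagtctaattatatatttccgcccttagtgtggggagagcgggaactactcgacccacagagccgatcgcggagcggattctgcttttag
HMGCS1 promoter, chr5:43313363-43313662, minus strand: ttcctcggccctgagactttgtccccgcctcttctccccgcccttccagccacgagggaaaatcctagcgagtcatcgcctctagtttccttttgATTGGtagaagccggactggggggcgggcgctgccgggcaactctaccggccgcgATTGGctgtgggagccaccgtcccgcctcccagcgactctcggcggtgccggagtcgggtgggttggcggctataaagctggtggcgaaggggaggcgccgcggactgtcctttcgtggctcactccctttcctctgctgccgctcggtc
MID1IP1 promoter, chrX:38801209-38801508, plus strand: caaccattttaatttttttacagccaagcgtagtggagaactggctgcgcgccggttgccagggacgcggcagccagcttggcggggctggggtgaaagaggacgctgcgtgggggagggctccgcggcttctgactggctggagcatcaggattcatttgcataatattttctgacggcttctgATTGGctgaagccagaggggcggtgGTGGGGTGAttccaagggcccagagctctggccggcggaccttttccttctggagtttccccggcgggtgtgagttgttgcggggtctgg
SREBF2 promoter, chr22:41832855-41833154, plus strand: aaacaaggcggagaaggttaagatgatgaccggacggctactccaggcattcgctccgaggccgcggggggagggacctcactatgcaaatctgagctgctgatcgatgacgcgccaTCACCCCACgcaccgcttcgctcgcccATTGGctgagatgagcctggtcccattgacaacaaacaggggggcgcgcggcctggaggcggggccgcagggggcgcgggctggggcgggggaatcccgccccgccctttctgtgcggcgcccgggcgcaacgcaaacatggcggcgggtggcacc

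A promoter window was found for 33 of the 37 members. A CCAAT box stood in at least 1 window of 25 of these 33 members, against 39.7% of all 27305 genes with a window. Among members lower with Dex in MM1S cells 13 of 18 with a window held one, and among tested members that were not called 9 of 12 did. The sterol response element as spelled was found in MID1IP1 and SREBF2 alone of the 33, against 1.39% of all genes, and the E-box in 5 members (ELOVL5, INSIG1, LSS, SC5D and SCAP), against 8.77%. FDPS holds 3 CCAAT boxes in its window, SCD and HMGCS1 hold 2, and INSIG1, MID1IP1 and SREBF2 hold 1. These are matches of letters in 1 window and not sites of binding.

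All values below are quantile normalized log2 bead intensities, listed in the order of replicates 1, 2 and 3, and a change is a difference of group means on that scale with the standard error of the limma fit. Probes differ in brightness, so a level is set only against the same probe. Across the 24 arrays 17059 to 21328 probes were over background, and the number of arrays limits the precision. All 6 plasma cell and myeloma markers (SDC1, CD38, TNFRSF17, IRF4, PRDM1 and XBP1) were over background in all 24 arrays. Of 15 markers of T cells, monocytes, epithelium, fibroblasts and erythroid cells, 14 had a probe, CD3D and CDH1 were over background in 0 arrays, HBB was over background in 24, and the other 11 in 2 to 16. The third MM1S mimetic array stands apart from its group: its log2 differences from the mock arrays had an SD of 0.159 to 0.214 over the measured genes, against 0.352 to 0.355 from mimetic replicates 1 and 2, which differed from each other by an SD of 0.115. It is therefore shown alone, and results of that group are given with and without it.

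**Figure D1:**
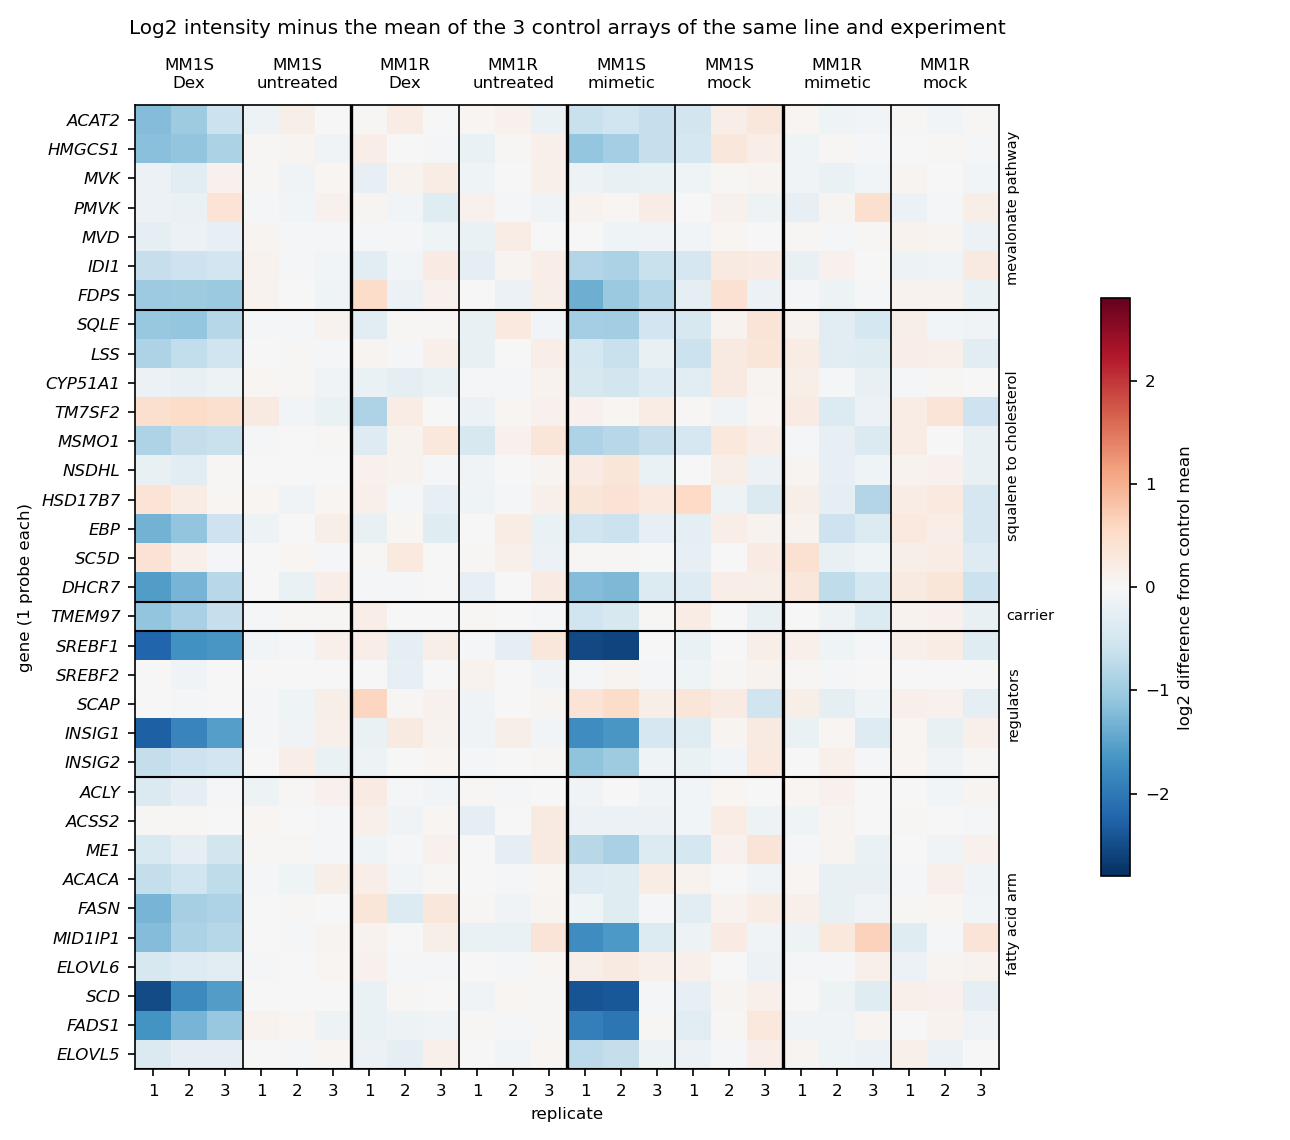
Heatmap of the 33 members tested within each experiment (rows, by arm) in the 24 arrays (columns, 3 replicates per group), coloured by log2 intensity minus the mean of the 3 control arrays of the same line and experiment. Blue fills the MM1S Dex columns and MM1S mimetic replicates 1 and 2 for 16 shared members, while the MM1R Dex and mimetic columns are pale (0 members called) and MM1S mimetic replicate 3 lies below every mock array for 10 of the 17 members lower in replicates 1 and 2.

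The first comparison asks what 72 h of Dex did to these genes in GC sensitive MM1S cells. Of the 33 members 21 fell and 0 rose (limma, adjusted p under 0.05 over 21486 probes), where 13.5% of all 11535 genes tested fell and 14.3% rose. With a fold change over 2 as well, 9 members fell, against 1.81% of all genes. The median change was -0.59 over the members and 0.01 over all genes. In the sterol arm 10 of 18 fell (4 of 7 mevalonate steps, 5 of 10 steps from squalene to cholesterol, and TMEM97), among the regulators 3 of 5, and in the fatty acid arm 8 of 10. The RNA is from whole cultures, in which a lower level in every cell and fewer cells with a high level cannot be told apart.

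Among the regulators, INSIG1, the sterol sensor that holds back SREBP processing, measured 10.72, 11.17 and 11.48 with Dex, against 12.97, 12.90 and 13.15 untreated. SREBF1, the gene of SREBP-1, measured 7.49, 8.03 and 8.09 with Dex, against 9.64, 9.67 and 9.85 untreated. All Dex arrays of both genes lay more than 1 log2 unit under the lowest untreated array. INSIG1 fell by 1.89 ± 0.15 (3.7-fold, limma adjusted p = 1.02e-08) and SREBF1 fell by 1.85 ± 0.16 (3.6-fold, limma adjusted p = 5.48e-08). INSIG2, the second INSIG gene, measured 8.76, 8.85 and 8.89 with Dex, against 9.41, 9.61 and 9.24 untreated. Its groups did not overlap either, and it fell by 0.59 ± 0.11 (1.5-fold, limma adjusted p = 0.000314).

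SREBF2, the gene of the sterol arm's SREBP-2, measured 7.35, 7.26 and 7.37 with Dex, against 7.36, 7.37 and 7.37 untreated, and SCAP, the escort of SREBP, measured 10.79, 10.76 and 10.80 against 10.74, 10.68 and 10.95. Both sets overlapped. The change of SREBF2 was -0.04 (95% interval -0.22 to 0.13, limma adjusted p = 0.787) and that of SCAP -0.01 (-0.27 to 0.25, limma adjusted p = 0.977). The SREBF2 probe was dim (mean log2 signal 7.38), so that a change of SREBF2 could be hidden. A second detected probe fell for INSIG1 (-1.59, limma adjusted p = 1.83e-09) and for SREBF1 (-1.26, limma adjusted p = 1.92e-08). Other probes of DHCR7 (-1.10), MSMO1 (-0.79), ACACA (-0.71), SQLE (-0.62), LSS (-0.48) and MID1IP1 (-0.85) fell too, and that of ELOVL6 gave -0.28 (limma adjusted p = 0.0535). One more probe of MSMO1 gave -0.03 (limma adjusted p = 0.866).

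In the mevalonate steps, HMGCS1, which joins acetyl units to HMG-CoA, measured 9.19, 9.26 and 9.49 with Dex, against 10.40, 10.44 and 10.27 untreated. FDPS, which makes farnesyl diphosphate, measured 8.84, 8.86 and 8.81 with Dex, against 9.96, 9.87 and 9.72 untreated. IDI1, the isomerase of the first isoprenoid, measured 8.65, 8.71 and 8.76 with Dex, against 9.40, 9.26 and 9.21 untreated. Every Dex array of the 3 genes was below every untreated one. HMGCS1 fell by 1.06 ± 0.11 (2.08-fold, limma adjusted p = 6.15e-07), FDPS fell by 1.01 ± 0.14 (2.02-fold, limma adjusted p = 1.09e-05) and IDI1 fell by 0.58 ± 0.13 (1.5-fold, limma adjusted p = 0.00221). ACAT2, which joins 2 acetyl-CoA at the start of the route, fell by 0.94. The 2 mevalonate kinases MVK and PMVK and the decarboxylase MVD, which stand between HMG-CoA and the isoprenoids, were not called (-0.12, 0.01 and -0.21). The probes of MVK and MVD were dim (mean log2 signal 7.40 and 7.57), and MVK was over background in 22 arrays. A change of MVK or MVD could thus be hidden.

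From squalene on, SQLE, the squalene epoxidase, measured 7.79, 7.76 and 8.06 with Dex, against 8.81, 8.79 and 8.96 untreated. DHCR7, which reduces 7-dehydrocholesterol to cholesterol, measured 7.89, 8.15 and 8.70 with Dex, against 9.46, 9.28 and 9.65 untreated. Neither gene's groups overlapped, and the Dex arrays of DHCR7 spread over more than the untreated ones. SQLE fell by 0.98 ± 0.13 (1.98-fold, limma adjusted p = 8.83e-06) and DHCR7 fell by 1.22 ± 0.16 (2.32-fold, limma adjusted p = 7.15e-06). EBP, the sterol isomerase (-1.0), MSMO1, a C4-demethylation enzyme, and LSS, the lanosterol synthase (-0.71 each), also fell.

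TM7SF2, a sterol reductase, went the other way without passing the test. It measured 9.11, 9.18 and 9.11 with Dex, against 8.93, 8.61 and 8.48 untreated, a change of 0.46 ± 0.19 (limma adjusted p = 0.082), with no overlap of the groups. NSDHL, the C4-decarboxylating sterol dehydrogenase, measured 9.79, 9.66 and 10.02 with Dex, against 10.00, 9.97 and 10.00 untreated, and its groups overlapped (-0.17, limma adjusted p = 0.292). CYP51A1, the lanosterol demethylase (-0.17), SC5D, the lathosterol oxidase (0.17), and HSD17B7 (0.22), whose probe may also read a near-identical pseudogene, were not called. The CYP51A1 probe was dim as well (mean log2 signal 7.56). TMEM97, a sterol regulated membrane protein, fell by 0.89, but its other detected probe gave 0.17 (limma adjusted p = 0.354), so that the direction of TMEM97 depends on the probe.

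In the fatty acid arm, SCD, the stearoyl-CoA desaturase that makes monounsaturated fatty acids, measured 10.26, 10.996 and 11.21 with Dex, against 12.77, 12.76 and 12.78 untreated. FADS1, the delta-5 desaturase of long polyunsaturated chains, measured 7.22, 7.61 and 7.85 with Dex, against 9.0, 8.95 and 8.77 untreated. FASN, the fatty acid synthase, measured 10.90, 11.27 and 11.33 with Dex, against 12.18, 12.24 and 12.18 untreated. The untreated arrays of SCD and FASN lay within 0.1 log2 unit of each other, and the Dex arrays were lower and more spread. SCD fell by 1.95 ± 0.15 (3.86-fold, limma adjusted p = 1.32e-08), the most of all members, FADS1 fell by 1.34 ± 0.12 (2.54-fold, limma adjusted p = 1.05e-07) and FASN fell by 1.03 ± 0.15 (2.05-fold, limma adjusted p = 2.61e-05).

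MID1IP1, which promotes acetyl-CoA carboxylase assembly, measured 7.75, 8.09 and 8.17 with Dex, against 8.96, 8.91 and 9.05 untreated. ME1, the malic enzyme that supplies NADPH, measured 8.46, 8.61 and 8.38 with Dex, against 8.92, 8.92 and 8.82 untreated. In both genes the groups were apart, by a wide margin in MID1IP1 and a narrow one in ME1. MID1IP1 fell by 0.97 ± 0.14 (1.96-fold, limma adjusted p = 1.91e-05) and ME1 fell by 0.40 ± 0.12 (1.32-fold, limma adjusted p = 0.0167). ACACA, the acetyl-CoA carboxylase, fell by 0.65, and the elongases ELOVL6 and ELOVL5 by 0.37 and 0.32. ACLY and ACSS2, which make cytosolic acetyl-CoA from citrate and from acetate, were not called (-0.25 and 0.01). The calls of ME1 (-0.30, limma adjusted p = 0.0915) and ELOVL5 (-0.23, limma adjusted p = 0.181) were lost with median centring of the arrays in place of quantile normalization. Both were also lost with all arrays in 1 fit, ELOVL5 with no filter, ME1 without untreated replicate 1 or 2 or Dex replicate 1 or 3, and ELOVL5 without any 1 untreated replicate or Dex replicate 1 or 2.

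**Figure D2:**
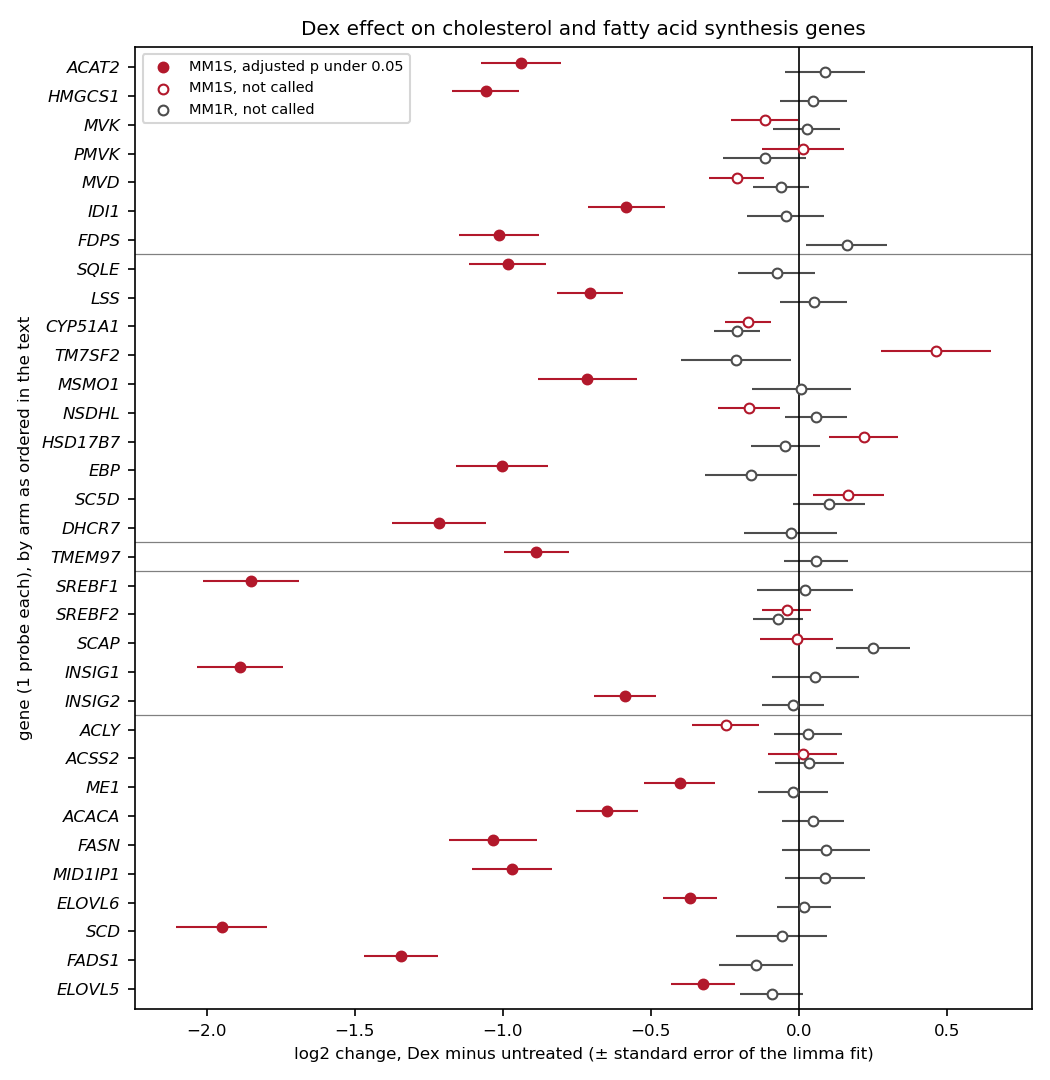
Log2 change with Dex (x axis, Dex minus untreated, bars are the standard error of the limma fit, n = 3 arrays per group) of each member (y axis, by arm) in MM1S (red) and MM1R (grey), filled where the adjusted p is under 0.05. In MM1S cells 21 members lie left of 0 and are called, down to -1.95 for SCD, and in MM1R cells none is called and all lie between -0.21 and 0.25.

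Other genes of these routes were counted from a list of 34 that are not members. Of 31 tested, 9 fell and 3 rose with Dex in MM1S cells, with a median of -0.11, where 13.5% of all genes fell and 14.3% rose. Those called with a fold change over 1.5 were LBR, a sterol reductase and lamin receptor (-0.84, limma adjusted p = 0.000198), PDSS1, of ubiquinone side chain synthesis (-0.60, limma adjusted p = 0.000558), and GGPS1, which makes geranylgeranyl diphosphate (0.62, limma adjusted p = 0.000118). GGPS1 draws on the product of FDPS, and the changes of FDPS and GGPS1 ran in opposite directions.

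The same 72 h of Dex in GC resistant MM1R cells called 0 of 33 members in either direction, with 1 at an unadjusted p under 0.05. The background was the same, with 0% of 11535 genes higher and 0% lower by limma (957 of 21486 probes at an unadjusted p under 0.05). INSIG1 measured 13.12, 13.57 and 13.39 with Dex in MM1R cells, against 13.21, 13.46 and 13.24 untreated. SREBF1 measured 9.73, 9.27 and 9.71 against 9.49, 9.28 and 9.87. SCD measured 13.01, 13.22 and 13.18 against 13.10, 13.25 and 13.23. The arrays of the 2 groups are mixed for each of these 3 genes, and the changes were 0.06 (95% interval -0.25 to 0.36), 0.02 (-0.32 to 0.36) and -0.06 (-0.38 to 0.26).

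In the sterol arm of MM1R cells HMGCS1 measured 11.11, 10.91 and 10.89 with Dex, against 10.74, 10.96 and 11.07 untreated. FDPS measured 10.50, 9.83 and 10.11 against 9.99, 9.81 and 10.15, and DHCR7 9.74, 9.77 and 9.80 against 9.57, 9.81 and 10.02. In each of these the groups overlapped, and the changes were 0.05, 0.16 and -0.03. IDI1 measured 9.34, 9.55 and 9.87 with Dex, against 9.38, 9.71 and 9.81 untreated, and SQLE 9.42, 9.75 and 9.75 against 9.51, 9.99 and 9.63. TM7SF2 measured 8.55, 9.61 and 9.43 against 9.24, 9.46 and 9.53, with Dex replicate 1 alone low, and NSDHL 10.53, 10.49 and 10.35 against 10.31, 10.42 and 10.47.

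Of the remaining regulators in MM1R cells INSIG2 measured 9.54, 9.70 and 9.74 with Dex, against 9.65, 9.67 and 9.71 untreated, SCAP 11.26, 10.70 and 10.78 against 10.57, 10.68 and 10.75, and SREBF2 7.47, 7.22 and 7.45 against 7.56, 7.45 and 7.35. In the fatty acid arm FASN measured 12.67, 11.94 and 12.64 with Dex, against 12.36, 12.22 and 12.40 untreated, and FADS1 9.07, 9.11 and 9.16 against 9.28, 9.21 and 9.28. MID1IP1 measured 9.44, 9.33 and 9.50 with Dex, against 9.15, 9.16 and 9.71 untreated, and ME1 8.62, 8.69 and 8.85 against 8.75, 8.47 and 8.99. Of these 7 genes FADS1 alone had groups that did not overlap, with a change of -0.14 (limma adjusted p = 0.997). Outside these 7, the groups of CYP51A1 did not overlap either. Neither gene was called, and the share of all genes without overlap was not counted.

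The difference of the 2 Dex effects (MM1S minus MM1R) was itself tested, and it shares its arrays with both comparisons above. It was called for 18 of 33 members, all lower in MM1S cells, where 8.8% of all 11535 genes were called in that direction. All 18 were also among the 21 called in MM1S cells. INSIG1 had the largest difference (-1.94 ± 0.21, 3.84-fold, limma adjusted p = 2.36e-06), followed by SCD (-1.89 ± 0.22, limma adjusted p = 6.26e-06) and SREBF1 (-1.87 ± 0.23, limma adjusted p = 1.26e-05). HMGCS1 (-1.11), FDPS (-1.17), DHCR7 (-1.19), FASN (-1.13) and FADS1 (-1.20) followed. IDI1, ME1 and ELOVL5 fell in MM1S cells, but their differences between the lines did not pass the test (-0.54, -0.38 and -0.23, limma adjusted p = 0.055, 0.145 and 0.362). ELOVL6 (-0.38, limma adjusted p = 0.0498) and MSMO1 (-0.72, limma adjusted p = 0.0451) were just inside the threshold, and both calls were lost in several alternatives. INSIG2 was lost with median centring (limma adjusted p = 0.067) and with all arrays in 1 fit (0.151), and FADS1, EBP and LSS with all arrays in 1 fit (0.0677, 0.0571 and 0.0758). Of the 31 other genes of the routes tested 0 were called with Dex in MM1R cells. In the difference 5 of them were lower, where 8.8% of all genes were, and 2 were higher.

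The next comparison asks what the mir-150-5p mimetic did to the same genes in MM1S cells. Over all 3 replicates 3 of 33 members fell and 0 rose, where 0.42% of all 12379 genes tested fell. These were FDPS (-1.06 ± 0.18, limma adjusted p = 0.0426), INSIG1 (-1.28 ± 0.26, limma adjusted p = 0.045) and HMGCS1 (-0.90 ± 0.18, limma adjusted p = 0.0455). The count of 3 was 0 with the groups compared alone (limma adjusted p = 0.179 for each of the 3), 12 with the replicate number as a block, 16 with all arrays in 1 fit and 22 with array weights, and HMGCS1 was also lost with median centring (limma adjusted p = 0.0515). Without replicate 3, which was left out after its values had been seen, 17 members fell and 0 rose, where 9.77% of all 12268 genes fell and 9.58% rose. With a fold change over 2 as well 9 members fell, against 1.65% of all genes. The median change over the members was -0.56, against 0.02 over all genes. With 2 arrays in the mimetic group, leaving out either one more brought the count of 17 to 10.

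SREBF1 measured 7.85, 7.81 and 10.39 in mimetic replicates 1, 2 and 3, against 10.19, 10.40 and 10.55 in mock cells. SCD measured 10.98, 11.02 and 13.34 with the mimetic, against 13.17, 13.47 and 13.55 in mock cells. FADS1 measured 8.10, 7.99 and 10.07 with the mimetic, against 9.70, 10.05 and 10.32 in mock cells. In all 3 genes mimetic replicates 1 and 2 agree within 0.2 log2 unit and lie far under every mock array, and replicate 3 lies inside the mock range. Over replicates 1 and 2 SREBF1 fell by 2.55 ± 0.17 (5.84-fold, limma adjusted p = 4.32e-08), SCD fell by 2.39 ± 0.15 (5.26-fold, limma adjusted p = 3.18e-08) and FADS1 fell by 1.98 ± 0.16 (3.94-fold, limma adjusted p = 2.99e-07).

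INSIG1 measured 11.36, 11.45 and 12.62 with the mimetic, against 12.76, 13.17 and 13.34 in mock cells. MID1IP1 measured 8.02, 8.15 and 9.37 with the mimetic, against 9.60, 9.99 and 9.66 in mock cells. DHCR7 measured 8.22, 8.17 and 9.04 with the mimetic, against 9.07, 9.62 and 9.59 in mock cells. Here replicate 3 lies under every mock array, by a narrow margin. Over replicates 1 and 2 INSIG1 fell by 1.69 ± 0.17 (3.22-fold, limma adjusted p = 4.15e-06), MID1IP1 fell by 1.67 ± 0.21 (3.18-fold, limma adjusted p = 5e-05) and DHCR7 fell by 1.23 ± 0.28 (2.35-fold, limma adjusted p = 0.00656).

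HMGCS1 measured 9.22, 9.35 and 9.66 with the mimetic, against 9.81, 10.61 and 10.50 in mock cells. FDPS measured 8.46, 8.78 and 9.02 with the mimetic, against 9.56, 10.24 and 9.65 in mock cells. IDI1 measured 9.0, 8.94 and 9.19 with the mimetic, against 9.35, 10.06 and 10.04 in mock cells. For these mevalonate genes all 3 mimetic arrays lie under all 3 mock arrays. Over replicates 1 and 2 HMGCS1 fell by 1.02 ± 0.19 (2.03-fold, limma adjusted p = 0.00126), FDPS fell by 1.19 ± 0.18 (2.29-fold, limma adjusted p = 0.000273) and IDI1 fell by 0.84 ± 0.19 (1.8-fold, limma adjusted p = 0.00645). SQLE measured 8.05, 8.04 and 8.48 with the mimetic, against 8.56, 9.10 and 9.36 in mock cells, again without overlap, and fell by 0.96 ± 0.20 (limma adjusted p = 0.00338).

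INSIG2 measured 8.88, 9.03 and 9.89 with the mimetic, against 9.84, 9.94 and 10.28 in mock cells, and ME1 8.80, 8.68 and 9.20 against 9.10, 9.71 and 9.93. Replicates 1 and 2 lie under the mock arrays in both genes and replicate 3 among them. Over replicates 1 and 2 INSIG2 fell by 1.06 ± 0.14 (2.09-fold, limma adjusted p = 8.72e-05) and ME1 fell by 0.84 ± 0.18 (1.79-fold, limma adjusted p = 0.00501). MSMO1 (-0.82), ELOVL5 (-0.70), ACAT2 (-0.59), TMEM97 (-0.51) and CYP51A1 (-0.48) fell as well, and the calls of ACAT2 and TMEM97 were lost in several alternatives. On another detected probe INSIG1 (-1.76), MID1IP1 (-1.53), SREBF1 (-1.33) and DHCR7 (-1.17) fell too, while ACAT2 gave -0.09, SQLE -0.41 and MSMO1 -0.59 without passing the test. A further probe of SREBF1 gave -0.16 (limma adjusted p = 0.23) and a further probe of MSMO1 -0.20 (limma adjusted p = 0.253). The other detected probe of TMEM97 gave -0.13 (limma adjusted p = 0.684).

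FASN measured 11.44, 11.21 and 11.49 with the mimetic, against 11.25, 11.65 and 11.76 in mock cells, and its groups overlapped (-0.23 over replicates 1 and 2, limma adjusted p = 0.405). SCAP measured 10.35, 10.46 and 10.12 against 10.29, 10.19 and 9.40, with mock replicate 3 alone low, and SREBF2 7.26, 7.38 and 7.25 against 7.19, 7.34 and 7.40. TM7SF2 measured 9.06, 9.0 and 9.14 with the mimetic, against 8.98, 8.85 and 9.0 in mock cells, and NSDHL 9.60, 9.72 and 9.19 against 9.37, 9.53 and 9.20. None of these 5 passed the test. Of the 34 other genes of the routes 33 were tested, 4 fell and 1 rose, shares near or below the 9.77% and 9.58% of all genes. ACACB, the mitochondrial acetyl-CoA carboxylase (-0.83), and HSD17B12, of the elongation cycle (-0.65), were those called with a fold change over 1.5.

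**Figure D3:**
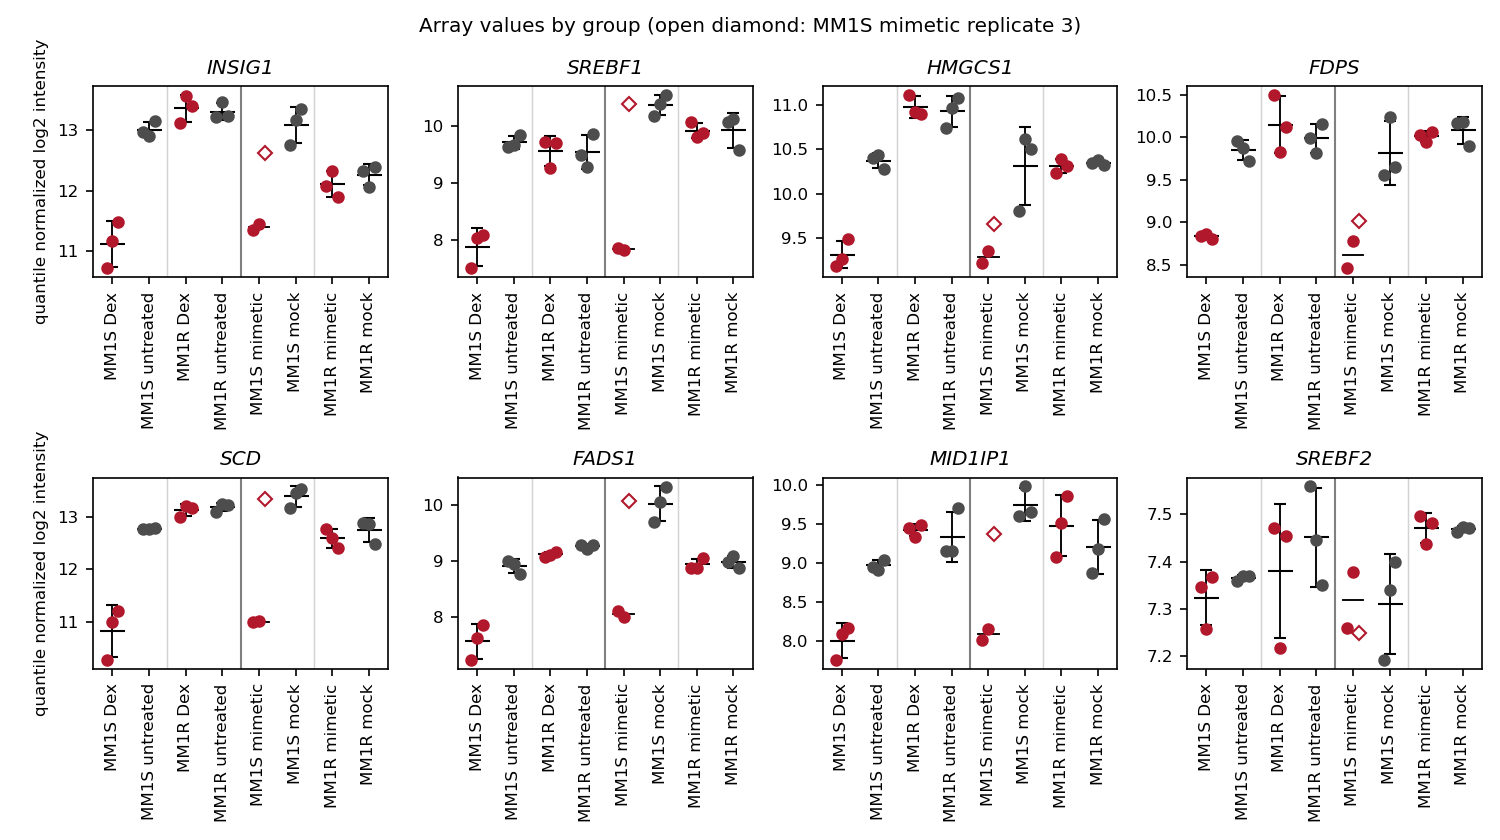
Quantile normalized log2 intensity (y axis, a scale of its own in each panel) of 8 members in the 24 arrays by group (x axis), with treated groups in red and controls in grey, bars at the mean with SD (n = 3), and for MM1S mimetic cells a bar at the mean of replicates 1 and 2 alone. The open diamond is MM1S mimetic replicate 3, which lies at the mock level for SREBF1, SCD and FADS1 and under every mock array for HMGCS1 and FDPS.

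Replicate 3 of the MM1S mimetic group was read against the 3 mock arrays for each of the 17 members that fell over replicates 1 and 2, as a description without a test. It lay under every mock array for 10 (HMGCS1, IDI1, FDPS, SQLE, CYP51A1, MSMO1, DHCR7, ACAT2, INSIG1 and MID1IP1) and within or above the mock range for 7 (INSIG2, SREBF1, SCD, FADS1, ELOVL5, ME1 and TMEM97). Over all 1198 genes lower in replicates 1 and 2, replicate 3 lay under every mock array for 37.1%. Both counts use the mock arrays against which the genes were called. Of the 10, 8 are genes of the mevalonate and sterol steps, and of the 7, 4 are genes of the fatty acid arm and 2 are regulators. As a share of the change over replicates 1 and 2, the difference of replicate 3 from the mock mean had a median of 31.2% over the 17 members and 10.5% over all genes lower. Among the sterol genes it was 110% in ACAT2, 79.8% in MSMO1, 75.6% in CYP51A1, 74.5% in IDI1, 66.8% in FDPS, 63.8% in HMGCS1, 54.9% in SQLE, 31.2% in DHCR7 and -4.99% in TMEM97. Among the regulators it was 27.8% in INSIG1, 11.7% in INSIG2 and -0.499% in SREBF1. Among the fatty acid genes it was 44.9% in ME1, 22.8% in MID1IP1, 19.4% in ELOVL5, 2.16% in SCD and -2.15% in FADS1, so that the shares of the arms overlap. The sterol arm stood at a median of -0.21 from the mock mean in replicate 3, against -0.53 in replicates 1 and 2 each. The fatty acid arm, here over 11 members with FADS2 included, stood at -0.11, against -0.35 in replicates 1 and 2 each. Over the 10 fatty acid members tested within the experiment, the median change over replicates 1 and 2 was -0.53. That of the sterol arm was -0.54. The mock arrays themselves vary in these genes: mock replicate 1 stood at a median of -0.27 in the sterol arm, lower than mimetic replicate 3, while mock replicates 2 and 3 stood at 0.17 and 0.09.

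In MM1R cells the mimetic called 0 of 33 members, with 0 at an unadjusted p under 0.05, and 0% of all 12379 genes were called higher and 0% lower by limma (649 of 23377 probes at an unadjusted p under 0.05). INSIG1 measured 12.08, 12.33 and 11.90 with the mimetic in MM1R cells, against 12.33, 12.07 and 12.40 in mock cells. SREBF1 measured 10.08, 9.81 and 9.88 against 10.07, 10.13 and 9.58, and SCD 12.76, 12.60 and 12.41 against 12.89, 12.86 and 12.48. These groups overlapped, and the changes were -0.16 (95% interval -0.70 to 0.38), 0.00 (-0.97 to 0.97) and -0.15 (-1.04 to 0.73). The fit takes 1 spread from all groups, MM1S mimetic replicate 3 included, and without that array it called 0 members as well.

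HMGCS1 in MM1R cells measured 10.23, 10.39 and 10.31 with the mimetic, against 10.35, 10.37 and 10.33 in mock cells. FDPS measured 10.03, 9.94 and 10.06 against 10.17, 10.18 and 9.89, and IDI1 9.09, 9.42 and 9.31 against 9.16, 9.19 and 9.54. SQLE measured 9.28, 8.88 and 8.69 against 9.37, 9.11 and 9.10. DHCR7, at 10.21, 9.18 and 9.40 with the mimetic and 10.14, 10.22 and 9.29 in mock cells, varied by about 1 log2 unit within each group. FASN measured 12.19, 11.83 and 11.95 with the mimetic, against 12.07, 12.11 and 11.96 in mock cells, FADS1 8.87, 8.88 and 9.06 against 8.97, 9.08 and 8.88, and ME1 8.87, 8.98 and 8.73 against 8.89, 8.80 and 9.03. MID1IP1 had the largest positive change of these members (0.27), at 9.08, 9.51 and 9.86 with the mimetic, against 8.87, 9.19 and 9.57 in mock cells, with overlapping groups.

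The other regulators in MM1R cells, and the sterol genes TM7SF2 and NSDHL, overlapped between the groups too. INSIG2 measured 9.43, 9.60 and 9.42 with the mimetic, against 9.50, 9.35 and 9.47 in mock cells, SCAP 10.77, 10.37 and 10.48 against 10.74, 10.73 and 10.35, and SREBF2 7.50, 7.44 and 7.48 against 7.46, 7.47 and 7.47. TM7SF2 measured 9.81, 9.20 and 9.42 with the mimetic, against 9.80, 9.95 and 9.0 in mock cells, and NSDHL 10.36, 10.05 and 10.16 against 10.36, 10.40 and 10.07.

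The difference of the 2 mimetic effects (MM1S replicates 1 and 2 minus MM1R) was called for 8 of 33 members, all lower in MM1S cells, where 5.4% of all 12268 genes were called in that direction. They were SREBF1 (-2.54 ± 0.22, limma adjusted p = 3.39e-06), SCD (-2.24 ± 0.20), MID1IP1 (-1.94 ± 0.29), FADS1 (-1.93 ± 0.21), INSIG1 (-1.52 ± 0.23), FDPS (-1.12 ± 0.25), INSIG2 (-1.10 ± 0.19) and HMGCS1 (-0.98 ± 0.25, limma adjusted p = 0.0236). Of the 10 steps from squalene to cholesterol 0 were called in this difference, with a median of -0.35 (-0.95 to 0.70). With 5.4% of all genes called, a count of 0 in 10 does not set these steps apart. With all 3 MM1S replicates 0 members were called.

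Dex and the mimetic lowered overlapping sets of these genes in MM1S cells. Of the 21 members lower with Dex and the 17 lower over mimetic replicates 1 and 2, 16 were the same, 76.2% of the first list and 94.1% of the second. TMEM97 is among the 16, and its other detected probe passed the test with neither treatment. Over all genes 654 were lower with both, 42.1% of the 1555 lower with Dex and 54.6% of the 1198 lower with the mimetic. LSS, EBP, FASN, ACACA and ELOVL6 were called with Dex only, CYP51A1 with the mimetic only, and 11 members with neither: MVK, PMVK, MVD, TM7SF2, NSDHL, HSD17B7, SC5D, SCAP, SREBF2, ACLY and ACSS2. Across the 33 members the 2 sets of changes, which share no arrays, had a Pearson r of 0.874 and a Spearman rho of 0.855. For replicate 3 alone r was 0.371 and rho 0.414. Across all 11014 genes tested in both experiments r was 0.614 and rho 0.514, and 0.116 and 0.107 for replicate 3 alone. These describe genes of the same arrays, which are not independent replicates.

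A gene passing in 1 treatment only is not shown to differ between treatments, so the difference was tested as well. It was the Dex effect minus the mimetic effect over replicates 1 and 2, fitted across all arrays but MM1S mimetic replicate 3. It was called for 2 of 34 members, where 3.41% of all 13215 genes were called in that direction, a share near that of the members. Each effect is taken against its own control, so that this is not a difference of levels. FASN averaged 12.20 in untreated and 11.55 in mock MM1S cells, and ELOVL6 8.21 and 8.08. The Dex effect was lower than the mimetic effect for FASN (-0.81 ± 0.23, limma adjusted p = 0.0348) and ELOVL6 (-0.57 ± 0.14, limma adjusted p = 0.0154). Both calls were lost with median centring (limma adjusted p = 0.0912 and 0.0987), where 2 members, SREBF1 among them, were called higher, and both were lost without mimetic replicate 1 or 2. For INSIG1 the difference was -0.20 (95% interval -0.69 to 0.28) and for HMGCS1 -0.04 (-0.48 to 0.41). SREBF1 (0.70, 0.19 to 1.21, limma adjusted p = 0.105), MID1IP1 (0.70, 0.17 to 1.23, limma adjusted p = 0.123) and FADS1 (0.63, 0.22 to 1.05, limma adjusted p = 0.065) fell further with the mimetic on average, without passing the test. On a second detected probe the difference was 0.07 for SREBF1 (limma adjusted p = 0.918) and 0.68 for MID1IP1 (limma adjusted p = 0.0926). That of SREBF1 thus depends on the probe.

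**Figure D4:**
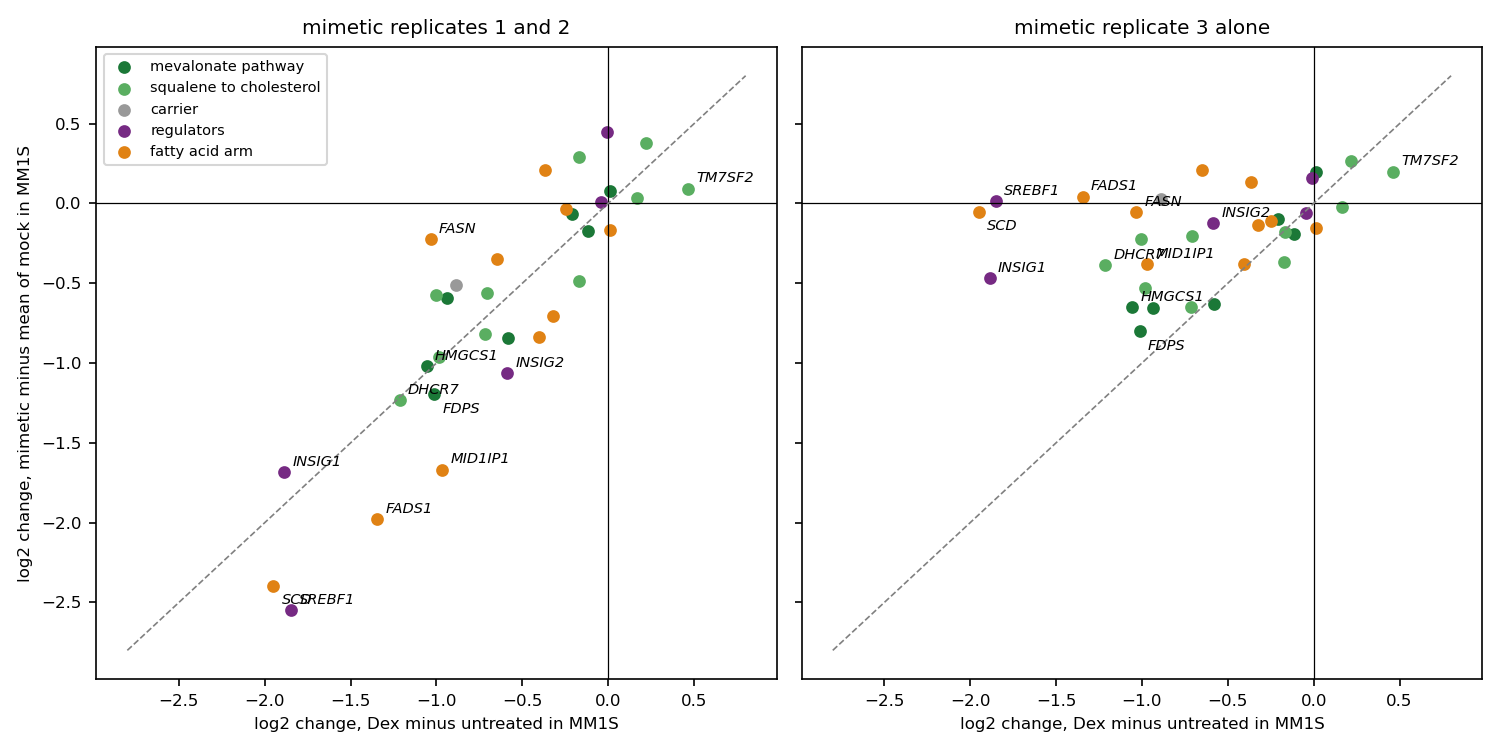
Log2 change with the mimetic (y axis, minus the mock mean) against log2 change with Dex (x axis, minus untreated) in MM1S cells for 33 members coloured by arm, with mimetic replicates 1 and 2 on the left and replicate 3 alone on the right (dashed line: equal change). On the left the points follow the line (r = 0.874), with FASN above it, and on the right SREBF1, SCD and FADS1 lie near 0 on the y axis while FDPS lies at -0.80.

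The lines were also compared without treatment. Untreated MM1R cells had 5 of 33 members higher and 0 lower than untreated MM1S cells, where 5.24% of all 11535 genes were higher. The count was 10 with the groups compared alone and 2 to 8 as single arrays were left out, 2 without MM1R replicate 2 or MM1S replicate 2 or 3 and 8 without MM1R replicate 1. SQLE was higher by 0.86 ± 0.13 (1.81-fold, limma adjusted p = 0.000185), TM7SF2 by 0.74 ± 0.19 (limma adjusted p = 0.0171), HMGCS1 by 0.55 ± 0.11 (limma adjusted p = 0.00363), NSDHL by 0.41 ± 0.10 (limma adjusted p = 0.0189) and ACSS2 by 0.39 ± 0.12 (limma adjusted p = 0.0429). The median over the members was 0.26, against 0.00 over all genes, and 25 of 33 had a positive sign. Of the 5, 4 belong to the sterol arm. On other detected probes ACSS2 gave 0.31 and 0.01 (limma adjusted p = 0.0887 and 0.978), while SQLE was again higher (0.63, limma adjusted p = 0.000363). The SQLE arrays were apart, at 9.51, 9.99 and 9.63 in MM1R cells against 8.81, 8.79 and 8.96 in MM1S cells.

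Between mock MM1R and mock MM1S cells 7 members were higher and 6 lower, where 15.3% of all 12379 genes were higher and 17.8% lower, shares near those of the members. The higher ones were PMVK (0.62), MVD (0.31), TM7SF2 (0.64), NSDHL (0.91), EBP (0.64), SCAP (0.65) and FASN (0.50), and the lower ones IDI1 (-0.52), INSIG1 (-0.82), INSIG2 (-0.58), FADS1 (-1.05), ELOVL5 (-0.87) and ME1 (-0.67). TM7SF2 and NSDHL were thus the 2 members higher in MM1R cells in both experiments, and mock replicate 3 of TM7SF2 was alike in the lines (9.0 each). With median centring of the arrays, which moves the median of all genes to -0.12 here, 1 member was higher and 7 were lower. At least 1 of the mock calls of TM7SF2 and NSDHL was thus lost with that scaling.

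Mock electroporated cells were set against untreated cells of the same line, although these are 2 experiments and electroporation, handling and array run cannot be told apart. In MM1S cells 7 members were higher and 5 lower, where 15.5% of all 13283 genes were higher and 13.7% lower. FADS1 (1.12), ELOVL5 (0.83), MID1IP1 (0.78), ME1 (0.69), INSIG2 (0.60), IDI1 (0.52) and CYP51A1 (0.35) were higher in mock cells, and SCAP (-0.83), FASN (-0.65), NSDHL (-0.62), PMVK (-0.59) and TMEM97 (-0.41) lower. The direction of TMEM97 turned with its second probe (0.15) and with median centring (0.060). With median centring, which moves the median of all genes by 0.21, 19 members were higher and 0 lower, so that this split rests on the scaling.

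In MM1R cells 1 member was higher in mock than in untreated cells, HSD17B7 (0.97), where 9.37% of all genes were higher. INSIG1 (-1.04 ± 0.22, 2.05-fold, limma adjusted p = 0.00142), HMGCS1 (-0.58 ± 0.16, limma adjusted p = 0.00916) and SQLE (-0.52 ± 0.17, limma adjusted p = 0.0354) were lower, where 9.03% of all genes were, a share near that of the members. The INSIG1 arrays of mock MM1R cells lie under those of untreated MM1R cells without overlap. The other detected probe of INSIG1 gave -0.37 (limma adjusted p = 0.291), so that its call depends on the probe, while that of SQLE was again lower (-0.61, limma adjusted p = 0.00143). Among members not called, other probes of MSMO1 (-1.28, limma adjusted p = 0.000123) and ELOVL6 (-0.31, limma adjusted p = 0.0224) were lower. A further probe of MSMO1 gave -0.04 (limma adjusted p = 0.812).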

How the data were processed

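RNA of 24 cultures was hybridised to Illumina HumanHT-12 beadchips. The deposited bead summaries are non-normalized log2 intensities per probe that the authors made with the beadarray package, each with a deposited detection p-value, and the authors' second table holds the same arrays as quantile normalized log2 values, which the authors tested with limma 3.14.1. How the detection p-values were computed is not given in the sources used here. The sources name 2 different RNA extraction kits.

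Of 47224 probes 4 with a missing value were left out, 30107 have 1 gene symbol, 8 have several and 17109 have none. The log2 intensities of all arrays were quantile normalized together, and they differed from the authors' normalized values by a median of 0.000138. Within each fit, probes over background (detection p under 0.05) on 3 or more of its arrays entered limma 3.58.1 in R 4.3.3 (lmFit, eBayes with trend, two-sided, Benjamini-Hochberg over all these probes). A member was called at an adjusted p under 0.05 on its brightest detected probe. The Dex and the electroporation experiments were fitted apart. Comparisons across them used all arrays, but for Dex minus mimetic, which left out MM1S mimetic replicate 3. Percentages of all genes use the same rule of 1 probe per gene. The fit was tested on simulated data.

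Array values are given for the 8 members with the largest change called with Dex in MM1S cells, the 5 regulators, 4 further members with the largest change called with the mimetic, and the members called in the same direction between the lines in both experiments. The members, arms and lists of other genes were chosen with earlier results of these data known. Alternatives were background correction (normexp, offset 16), median centring, the authors' values, no filter, other arrays in the fit, array weights, the replicate number as a block, the second probe, a fold change over 2, and leaving out each array. The mature sequence of the miRNA and the promoter of SQLE are not shown.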

Additional observations from a re-analysis of the deposited data

Results flagged for a closer look

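The difference between the lines was itself tested for each member, and the members past the threshold are those listed here. For the Dex effect, MM1S minus MM1R, the log2 differences were -1.94 in INSIG1, -1.89 in SCD, -1.87 in SREBF1, -1.20 in FADS1, -1.19 in DHCR7, -1.17 in FDPS, -1.13 in FASN, -1.11 in HMGCS1, -1.06 in MID1IP1, -1.02 in ACAT2, -0.94 in TMEM97, -0.91 in SQLE, -0.84 in EBP, -0.76 in LSS, -0.72 in MSMO1, -0.69 in ACACA, -0.57 in INSIG2 and -0.38 in ELOVL6. That of TMEM97 depends on its probe.

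For the mimetic effect, MM1S replicates 1 and 2 minus MM1R, they were -2.54 in SREBF1, -2.24 in SCD, -1.94 in MID1IP1, -1.93 in FADS1, -1.52 in INSIG1, -1.12 in FDPS, -1.10 in INSIG2 and -0.98 in HMGCS1. All of these rest on leaving out MM1S mimetic replicate 3.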

How the results depend on the processing

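The count of 21 members lower with Dex in MM1S cells stayed within 1.5 times of itself in every alternative but the further requirement of a fold change over 2 (9), and was 19 to 21 as single arrays were left out. Members higher were 1 with median centring, 1 with the groups compared alone and 2 with array weights. The Dex difference between the lines gave 10 with a fold change over 2, 16 to 19 lower and 0 to 1 higher as single arrays were left out (1 without MM1R Dex replicate 2).

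The mimetic in MM1S cells over all 3 replicates gave 8 members lower with no filter, 16 with all arrays in 1 fit, 0 with the groups compared alone and 22 with array weights. Without single arrays it gave 0 (mimetic replicate 1 or 2, mock replicate 2 or 3), 9 (mock replicate 1) and 17 (mimetic replicate 3). Over replicates 1 and 2 it gave 9 with a fold change over 2, 1 higher with array weights, and 10 to 17 (10 without mimetic replicate 1 or 2). The mimetic difference between the lines gave 16 lower and 1 higher with array weights, 0 with all 3 MM1S replicates (chosen after seeing the data), and 6 to 15 (15 without MM1S mock replicate 1). In MM1R cells Dex and the mimetic gave 0 in every alternative, also without MM1S mimetic replicate 3 in the fit.

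Dex minus mimetic gave 2 higher and 0 lower with median centring, 2 higher with the groups compared alone, 6 higher and 4 lower with array weights, and 0 lower with a fold change over 2. As single arrays were left out it gave 0 to 4 higher (3 without MM1S Dex replicate 1, 4 without mock replicate 1) and 0 to 2 lower (0 without mimetic replicate 1 or 2).

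Untreated MM1R against MM1S gave 3 higher with no filter, 3 with all arrays in 1 fit, 10 with the groups compared alone, 0 with a fold change over 2, and 2 to 8 (8 without MM1R replicate 1, 2 without MM1R replicate 2 or MM1S replicate 2 or 3, 3 without MM1R replicate 3 or MM1S replicate 1). Mock MM1R against MM1S gave 1 higher with median centring, 0 higher and 1 lower with a fold change over 2, 3 to 8 higher (3 without MM1R replicate 1 or 2, 4 without MM1S replicate 3) and 1 to 7 lower (2 without MM1R replicate 1, 1 without MM1R replicate 2 or MM1S replicate 2 or 3).

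Mock against untreated in MM1S cells gave 19 higher and 0 lower with median centring, 13 higher with array weights, 1 higher and 0 lower with a fold change over 2, and 4 to 10 higher (4 without untreated replicate 3 or mock replicate 2 or 3) and 4 to 5 lower. In MM1R cells it gave 1 lower with median centring, 0 higher and 1 lower with a fold change over 2, and 2 to 4 lower. The change of TMEM97 reversed with its second probe to 0.17 (Dex in MM1S), 0.16 (Dex difference) and 0.15 (mock against untreated in MM1S), and with median centring to 0.060 in that last comparison. The cause of these shifts was not tested.

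The replicate numbers were not taken to pair the samples, since no comparison had all pairs correlated above 0.1. Between Dex and untreated MM1R arrays the lowest correlation of a pair was 0.09 by the numbers of the titles and -0.352 by those of the descriptions. Between mimetic and mock MM1R arrays it was -0.546, so that pairing is not settled. With the replicate number as a block the mimetic over all 3 MM1S replicates gave 12 lower under either numbering in the labels, and untreated MM1R against MM1S 8 higher under the numbers of the titles. The experiment alone was not run for the 3 comparisons that span both experiments. With 3 arrays a group, or 2 of the mimetic, small changes were not detectable. Probes near background, as those of SREBF2, FADS2, MVK, MVD and CYP51A1, can hide a change.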
